A study of Mus musculus with 9 samples.

Results

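Interferon-stimulated genes were followed as a set of 46 genes, listed by gene symbol, out of 56748 genes in the count table. Each of the 46 symbols matched 1 gene. RNA-seq had been done on 9 libraries of bone marrow hematopoietic stem cells (HSCs) from female C57BL/6 mice, with 3 libraries in each of 3 groups. Young HSCs (yHSCs) came from mice of 6 to 10 weeks, and pre-aged HSCs (paHSCs) came from mice of 14 to 16 months. The paHSCs were divided by surface P-selectin (Selp), an adhesion molecule of activated platelets, into Selp_low paHSCs and Selp_high paHSCs. All groups were sorted as lineage-negative Sca1+ c-Kit+ CD48- CD150+ cells, so the comparisons concern age together with the Selp gate, and the Selp gate within a single age. The labels name no transgene or treatment, and how many animals entered each RNA-seq library was not stated. The p-values therefore measure the spread between these libraries, which may be partly technical.

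Interferons are secreted alarm signals that bind their receptors on nearby cells. The receptors act through Janus kinases and the transcription factors these switch on, which bind a DNA element called the interferon-stimulated response element (ISRE) after type I interferon and a GAS element after interferon-γ. The induced genes encode sensors of foreign nucleic acid, proteins that block virus replication, membrane proteins that hinder virus entry, GTPases that attack vacuoles holding intracellular pathogens, and ubiquitin-like or ADP-ribosylation enzymes that tune the response. In HSCs, both interferon types are known to drive cells out of quiescence, and stem cells are known to keep some interferon-stimulated genes on without infection.

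The response elements that define such genes were looked for in RefSeq promoters (GRCm38.p6, 250 bases before to 50 bases after the transcription start), a build other than the mm39 of the count table, so no position was carried between them. Of the 46 genes, 33 had a promoter in the table. Genes were counted by symbol, with a match in any promoter listed for the symbol. The ISRE core GAAANNGAAA, or TTTCNNTTTC on the other strand, was present for 18 of these 33 genes, or 54.5% (95% exact Clopper-Pearson interval 36.4 to 71.9%), against 1079 of all 27025 gene symbols, or 3.99%. A longer form, GAAACNGAAA or TTTCNGTTTC, which is contained in the core, was present for 12 of 33 against 0.792% of all symbols. The palindromic GAS core TTCNNNGAA was present in 9 of 33, or 27.3%, against 9.55% of all. A match of letters is a description and not evidence of binding. The following 6 windows were taken only from genes with an ISRE core among those named below for their p, smallest unadjusted p first. Genes named below without the core in their promoter, such as Lgals3bp, Oasl2 and Ifi44, are therefore not shown. Each window has up to 25 bases around the match and the ISRE core in capitals, and is read 5′ to 3′ on the gene's strand.
Igtp, chr11:58199497-58199556, plus strand: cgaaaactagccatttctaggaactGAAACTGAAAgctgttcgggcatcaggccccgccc
Gbp7, chr3:142530258-142530317, plus strand: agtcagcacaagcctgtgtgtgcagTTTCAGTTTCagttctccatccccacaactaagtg
Ifih1, chr2:62646206-62646248, minus strand: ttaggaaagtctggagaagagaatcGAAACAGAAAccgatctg
Ifitm3, chr7:141010708-141010767, minus strand: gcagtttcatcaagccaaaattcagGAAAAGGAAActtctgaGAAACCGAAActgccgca
Ifit1, chr19:34640760-34640819, plus strand: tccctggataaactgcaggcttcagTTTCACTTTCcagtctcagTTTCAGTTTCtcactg
Rsad2, chr12:26456538-26456597, minus strand: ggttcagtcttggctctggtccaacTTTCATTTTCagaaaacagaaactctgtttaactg
The windows of Ifitm3 and Ifit1 held 2 matches each. Between Selp_high and Selp_low paHSCs the median log2 fold change was 0.58 over the 18 genes with an ISRE core and 0.54 over the 15 without.

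The libraries held 24866975 to 35375310 counts, and levels are given as CPM, counts scaled to the size of the library by TMM factors, or as FPKM, which also divides by gene length, where genes are compared with each other. Selp itself, the gene sorted on, was at 20.6 to 30.0 CPM in yHSCs, 29.4 to 109 in Selp_low and 265 to 652 in Selp_high paHSCs. Summed CPM of 8 HSC markers was 1014 to 2271 in yHSCs, 791 to 1482 in Selp_low and 2113 to 3048 in Selp_high paHSCs. Markers of other cells were found in all groups, at levels that differed widely between libraries. The 7 neutrophil genes summed to 203535 CPM in Selp_low replicate 3, against 489 to 63332 in the other 8 libraries. The 6 B cell genes summed to 5235 and 7406 CPM in Selp_low replicates 1 and 2 and to at most 438 elsewhere, and Cd48, which the sort excludes, was at 175 and 310 CPM in the same 2 libraries and at most 38.7 elsewhere. The 3 plasma cell genes summed to 98790 CPM in Selp_low replicate 2, of which Jchain alone gave 98463, to 3223 in Selp_high replicate 2 and to at most 493 elsewhere. The 4 megakaryocyte genes summed to 100 to 149.8 CPM in yHSCs, 115 to 1935 in Selp_low and 893 to 5378 in Selp_high paHSCs. The 5 T and NK cell genes summed to 50.3 to 87.7 CPM in yHSCs, 239 to 758 in Selp_low and 123 to 150.5 in Selp_high paHSCs. The 5 monocyte and macrophage genes summed to 2002 CPM in Selp_low replicate 3 and to 98.3 to 428 elsewhere, and the erythroid genes to 162 to 1886 over the 9 libraries. The part of such cells in the results was not tested. Fewer genes were detected in yHSC replicate 2 (21094) and Selp_high replicate 1 (21755) than in the other libraries (25192 to 34143). In bulk libraries, fewer cells of a type and less RNA per cell cannot be told apart.

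All 46 genes passed the filter on low counts in each comparison. By mean FPKM, all 46 were above 1 in yHSCs, 43 in Selp_low paHSCs (all but Oas2, Mx1 and Mx2) and 45 in Selp_high paHSCs (all but Mx1). The order of levels was led by Ifitm3, at a mean of 1088 FPKM over the 9 libraries, and Ly6e at 479.5 FPKM, both membrane proteins. The sensors and antiviral effectors were far lower, between 1.06 FPKM for Mx1 and 56.3 for Irf1.

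**Figure D1:**
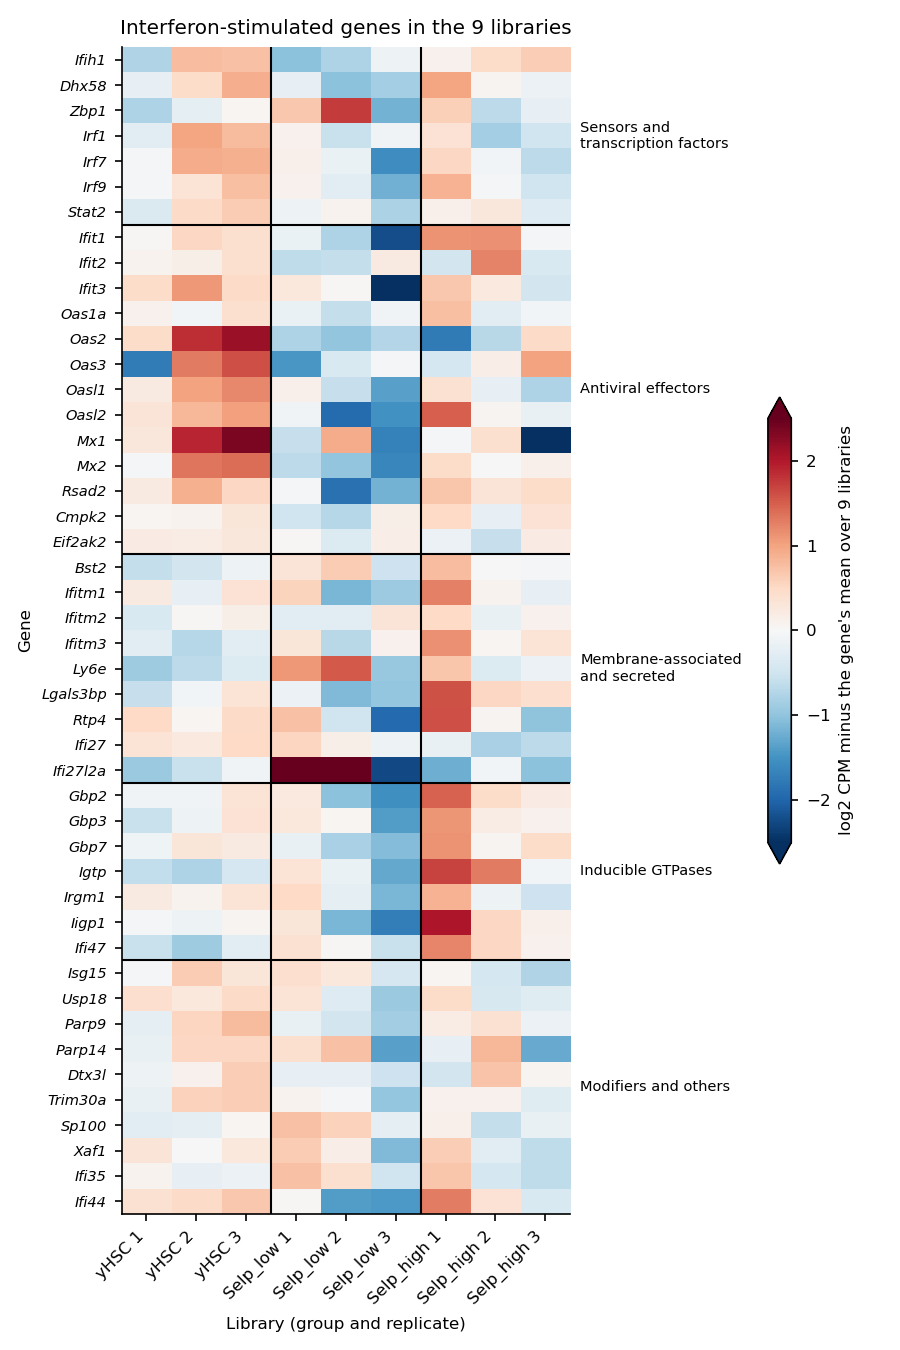
Level of each of the 46 interferon-stimulated genes (rows, grouped by role) in each of the 9 libraries (columns), as log2 CPM minus the gene's mean over the 9 libraries, with colours saturating at 2.5 either way. Selp_low replicate 3 is blue in most rows, and Selp_high replicate 1 is red in the GTPase rows.

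Between the paHSC groups, the 46 interferon-stimulated genes were mostly higher in Selp_high than in Selp_low paHSCs, above all the inducible GTPases, but no gene passed the test. The median log2 fold change over the 46 genes was 0.51, against -0.11 over all 20370 genes tested, and 34 of 46 genes were above 0 against 44.8% of all genes. A call asked for an adjusted p no higher than 0.05 and a log2 fold change of 1 or more in either direction, and by these limits edgeR's quasi-likelihood test called none of the 46 and none of all genes (0%). At an unadjusted p under 0.05, 11 of 46 genes were higher in Selp_high paHSCs against 6.88% of all genes, and 2 were lower against 5.67%. The 3 Selp_high libraries all lay above the 3 Selp_low libraries for 8 genes (10.3% of all genes) and all below for 1 (10.7% of all genes). DESeq2 called 1 of 46, Ifi27l2a, against 2.4% of its genes. Leaving out Selp_low replicate 2, Selp_high replicate 1 or Selp_high replicate 2 reduced the 13 genes with an unadjusted edgeR p under 0.05 to 2, 4 and 6, respectively. The median was 0.51 without Selp_low replicate 2, 0.38 without Selp_low replicate 3 and 0.23 without Selp_high replicate 1.

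Same-numbered Selp_low and Selp_high libraries deviated together from their group means, and the direction was then read within each same-numbered pair. The pairing was inferred from these same data and is not established. Values within pairs and with the block are therefore descriptions that rest on it. The median difference in log2 CPM, Selp_high minus Selp_low, was 0.50, 0.30 and 0.71 in pairs 1, 2 and 3, against -0.17, 0.04 and -0.07 over all genes. Of the 46 differences, 34 were above 0 in pair 1, 33 in pair 2 and 39 in pair 3. Each pair includes a Selp_low library with markers of other cells, B cell genes in pairs 1 and 2, plasma cell genes in pair 2 and neutrophil genes in pair 3. Higher in every pair were 28 of 46 genes (21.6% of all genes), and lower in every pair were 3, Ifi27, Isg15 and Ifi35 (24.9% of all genes). The 28 comprised all 7 GTPases, 9 of 13 antiviral effectors, 5 of 7 sensors and transcription factors, 4 of 9 membrane or secreted proteins and 3 of 10 modifiers. With the replicate number as a block, edgeR still called none (lowest adjusted p 0.0733, for Iigp1). DESeq2 with the same block, a fit chosen after the data had been seen, called 10 of 46 as higher in Selp_high paHSCs (4.75% of its genes) and none as lower (5.61% of its genes). These 10 were Igtp, Iigp1, Gbp2, Gbp7, Ifit1, Oasl2, Rsad2, Ifih1, Lgals3bp and Ifi44. In edgeR with the block their adjusted p was 0.0733 to 0.131. Dhx58, Mx2, Ifi27 and Ifi27l2a, which had an unadjusted edgeR p under 0.05 without the block, were not called.

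Against yHSCs, the 46 genes of Selp_high paHSCs were about as often lower as higher. In Selp_high paHSCs over yHSCs the median log2 fold change was -0.07, against -0.03 over all 20017 genes tested, and 20 of 46 genes were above 0. The median was 0.00 without Selp_high replicate 2, 0.09 without Selp_high replicate 3 and -0.31 without Selp_high replicate 1. None of 46 was called by edgeR (0.165% of all genes). At an unadjusted p under 0.05, 4 genes were higher (4.48% of all genes) and 3 lower (3.11%), which became 4 genes in all without yHSC replicate 2 and 11 without Selp_high replicate 1. Without overlap of libraries, 6 were higher (8.53%) and 1 lower (5.28%). DESeq2 called 2 of 46, Igtp as higher and Oas2 as lower, against 3.32% of its genes.

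In Selp_low paHSCs over yHSCs most of the 46 interferon-stimulated genes were lower, and the antiviral effectors were lower throughout. The median was -0.48 against 0.08 over all 20437 genes tested, with 10 of 46 above 0 against 55.1% of all genes. It was -0.36 without Selp_low replicate 3, -0.45 without Selp_low replicate 2 and -0.79 without Selp_low replicate 1. edgeR called none of the 46 and none of all genes (0%), with 2 higher (7.11% of all genes) and 9 lower (4.17%) at an unadjusted p under 0.05. These 11 became 3 when yHSC replicate 3 was left out, 5 when yHSC replicate 2 was, and 4 when Selp_low replicate 2 was. The 3 Selp_low libraries all lay below the 3 yHSC libraries for 13 of 46 genes (6.76% of all genes) and above for none (9.59%). DESeq2 called 2, Oas2 and Mx2, both lower, against 2.57% of its genes. The comparisons share groups, so their values are not independent of each other.

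**Figure D2:**
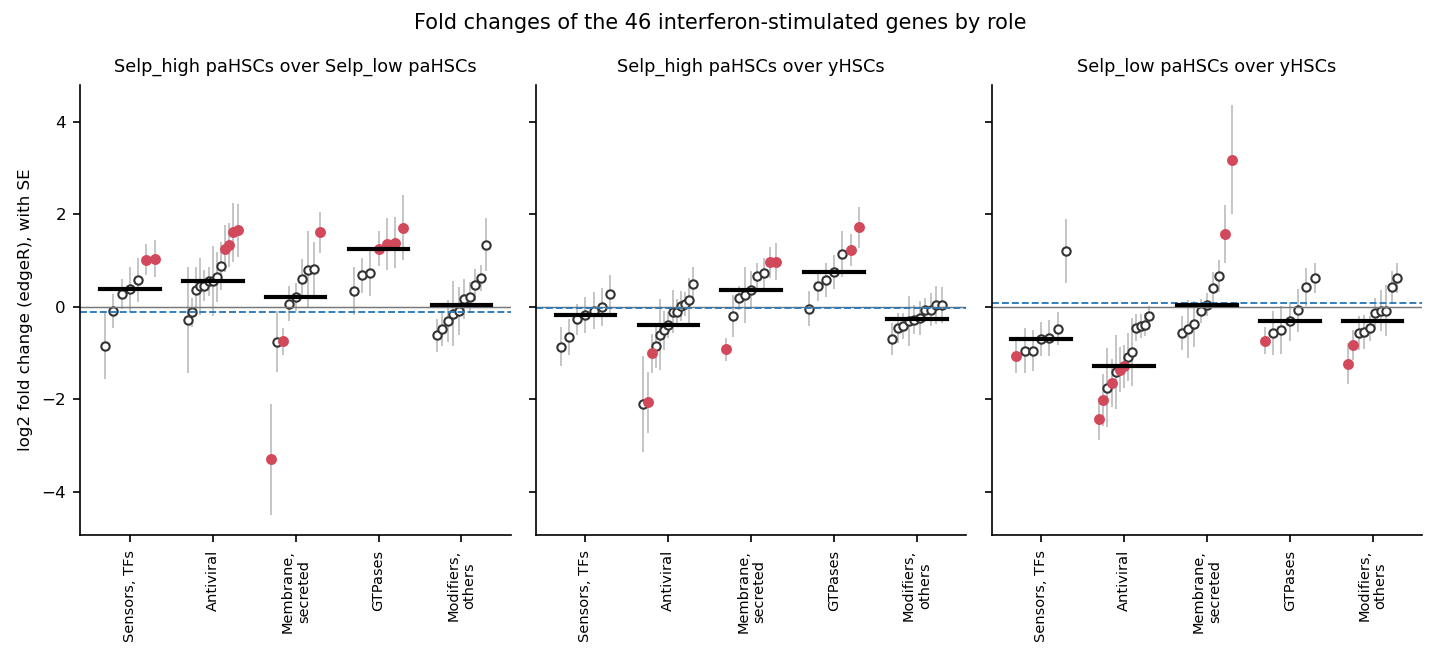
Log2 fold change of each of the 46 genes (circles) with its SE (grey bars), by role, in the 3 comparisons. Filled circles have an unadjusted edgeR p under 0.05, black lines are the medians of the role, and the dashed line is the median of all genes tested. The GTPase median is above the dashed line for Selp_high over Selp_low paHSCs (1.25) and the antiviral median is below it for Selp_low paHSCs over yHSCs (-1.29).

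The 7 interferon-inducible GTPases belong to families that act against bacteria or parasites held in vacuoles. Of the immunity-related GTPases (Igtp, Irgm1, Iigp1, Ifi47), Iigp1 is one that can break such vacuoles. Guanylate-binding proteins (Gbp2, Gbp3, Gbp7) coat them. Of the 5 roles the GTPases had the highest median log2 fold change in Selp_high paHSCs, at 1.25 over Selp_low paHSCs (7 of 7 above 0) and 0.74 over yHSCs (6 of 7 above 0). In Selp_low paHSCs over yHSCs the median was -0.31, with 2 of 7 above 0.

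Igtp was at 76.5, 68.6 and 88.0 CPM in yHSCs, 147, 104 and 48.4 in Selp_low and 375, 287 and 112 in Selp_high paHSCs, replicates 1 to 3 in order here and below. All Selp_high libraries lay above all yHSC libraries, while Selp_high replicate 3 lay below Selp_low replicate 1. Over yHSCs its log2 fold change was 1.71 (SE 0.44, edgeR adjusted p = 0.290, DESeq2 adjusted p = 0.0171), and over Selp_low paHSCs 1.36 (SE 0.56, edgeR adjusted p = 0.392, and 1.22e-05 by DESeq2 with the block). Igtp (chr11:58090382-58098417, mm39) overlaps Irgm2 by 7974 bases on the same strand, so the reads of these GTPases may have been split or lost in counting and the value is uncertain in this respect. Irgm2, which is no member of the set, was at 29.4, 29.4 and 45.7 CPM in yHSCs, 40.2, 21.5 and 14.5 in Selp_low and 95.4, 71.7 and 67.1 in Selp_high paHSCs. All 3 Selp_high libraries were thus higher than all others for Irgm2, with a log2 fold change over Selp_low paHSCs of 1.61 (SE 0.41, edgeR adjusted p = 0.338) and over yHSCs of 1.15 (SE 0.28, edgeR adjusted p = 0.246, DESeq2 adjusted p = 0.0137).

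Ifi47, which lies within a same-strand overlap with Olfr56, was at 106, 83.1 and 128 CPM in yHSCs, 202, 158 and 106 in Selp_low and 360.4, 222 and 168 in Selp_high paHSCs. The Selp_high libraries did not overlap the yHSC libraries but overlapped the Selp_low libraries. Over yHSCs the log2 fold change was 1.22 (SE 0.34, edgeR adjusted p = 0.337). Iigp1 was at 57.3, 54.2 and 61.6 CPM in yHSCs, 73.1, 26.6 and 17.7 in Selp_low and 239, 83.9 and 64.2 in Selp_high paHSCs. The 3 yHSC libraries were close together, and the 2 paHSC groups spread to either side of them. For Selp_high over Selp_low paHSCs Iigp1 had a log2 fold change of 1.70 (SE 0.70, edgeR adjusted p = 0.391, and 1.1e-08 by DESeq2 with the block), which was 0.91 without Selp_high replicate 1 and 2.57 without Selp_low replicate 1.

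Gbp7 was at 108, 144 and 136 CPM in yHSCs, 102, 66.3 and 55.2 in Selp_low and 255, 122 and 159 in Selp_high paHSCs, so that every Selp_low library lay below every other library. The fold change on the log2 scale was 1.25 for Selp_high over Selp_low paHSCs (SE 0.38, edgeR adjusted p = 0.338, and 5.95e-04 by DESeq2 with the block) and -0.74 for Selp_low paHSCs over yHSCs (SE 0.30, edgeR adjusted p = 0.421). Gbp2 was at 55.4, 55.6 and 74.5 CPM in yHSCs, 70.0, 29.1 and 20.4 in Selp_low and 165, 81.7 and 68.3 in Selp_high paHSCs. The ranges of the paHSC groups touched for Gbp2, with a log2 fold change of 1.38 (SE 0.55, edgeR adjusted p = 0.383, and 7.62e-06 by DESeq2 with the block). It was 0.91 without Selp_high replicate 1 and 2.10 without Selp_low replicate 1. Gbp3 and Irgm1, the remaining GTPases, had no unadjusted p under 0.05 in any comparison. For every GTPase the Selp_low library with the lowest level was replicate 3, the library of the neutrophil markers, and the Selp_high library with the highest level was replicate 1, and the part of these libraries in the result was not tested.

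**Figure D3:**
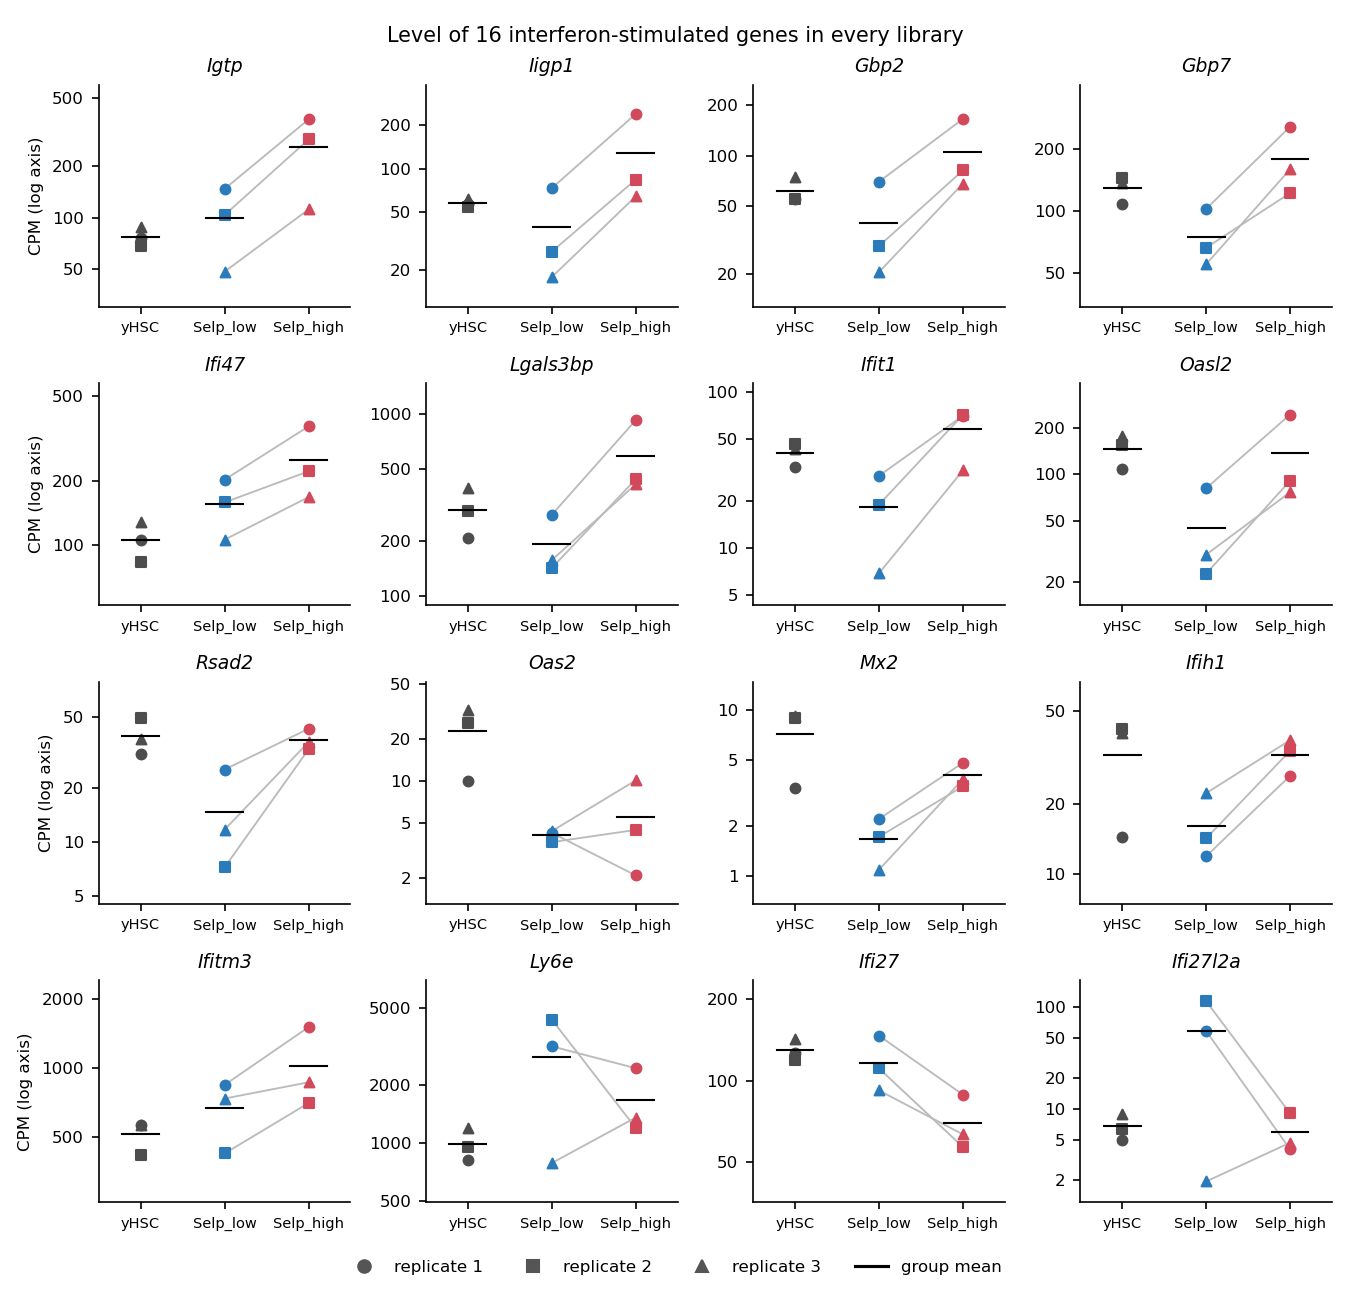
CPM (log axis) of 16 interferon-stimulated genes in every library of yHSCs (grey), Selp_low paHSCs (blue) and Selp_high paHSCs (red), with the group mean as a black bar and grey lines joining same-numbered paHSC libraries. For Gbp7, Lgals3bp, Ifit1, Rsad2, Mx2 and Ifih1 the Selp_high libraries lie above all Selp_low libraries, while Ly6e and Ifi27l2a are highest in Selp_low replicates 1 and 2.

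The 13 antiviral effectors belong to families that can interfere with virus replication inside the cell. Whether each makes a working protein in these mice was not tested. They comprise the RNA-binding IFIT proteins, the oligoadenylate synthases that switch on RNase L, the dynamin-like MX proteins, viperin (Rsad2) with its chromosomal neighbour Cmpk2, and the kinase Eif2ak2 that stops translation. All 13 had a log2 fold change below 0 in Selp_low paHSCs over yHSCs, with a median of -1.29, and for 9 of 13 the groups did not overlap (6.76% of all genes). Against Selp_low paHSCs, 11 of 13 were above 0 in Selp_high paHSCs (median 0.56), and against yHSCs 4 of 13 (median -0.40).

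Oas2 was low in both paHSC groups. It was at 9.94, 26.3 and 32.3 CPM in yHSCs, 4.24, 3.63 and 4.35 in Selp_low and 2.09, 4.44 and 10.1 in Selp_high paHSCs. The Selp_low libraries were all below the yHSC libraries, and Selp_high replicate 3 lay just above the lowest yHSC library. Its log2 fold change against yHSCs was -2.42 in Selp_low paHSCs (SE 0.45, edgeR adjusted p = 0.332, DESeq2 adjusted p = 0.0011) and -2.07 in Selp_high paHSCs (SE 0.66, edgeR adjusted p = 0.433, DESeq2 adjusted p = 0.0427). Between the paHSC groups the difference was 0.44 (SE 0.61), smaller than its error. Mx1, at 2.54, 7.91 and 10.9 CPM in yHSCs, 1.38, 4.03 and 0.60 in Selp_low and 2.04, 2.77 and 0.115 in Selp_high paHSCs, had log2 fold changes against yHSCs of -1.75 in Selp_low (SE 0.85) and -2.10 in Selp_high paHSCs (SE 1.04), but its groups overlapped. Oasl1, a regulator related to the synthases, was at 13.0, 22.3 and 25.5 CPM in yHSCs, 12.1, 7.39 and 4.28 in Selp_low and 14.4, 9.63 and 6.51 in Selp_high paHSCs. It was lower than in yHSCs by a log2 fold change of -1.29 in Selp_low (SE 0.47, edgeR adjusted p = 0.372) and -1.01 in Selp_high paHSCs (SE 0.41, edgeR adjusted p = 0.638).

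Other effectors were low in Selp_low paHSCs and near the yHSC level in Selp_high paHSCs. Oasl2 was at 108, 154 and 177 CPM in yHSCs, 81.3, 22.8 and 30.2 in Selp_low and 244, 91.1 and 76.7 in Selp_high paHSCs. Its log2 fold change was -1.65 for Selp_low paHSCs over yHSCs (SE 0.51, edgeR adjusted p = 0.339), 1.60 for Selp_high over Selp_low paHSCs (SE 0.64, edgeR adjusted p = 0.383, and 9.28e-07 by DESeq2 with the block) and -0.11 for Selp_high paHSCs over yHSCs (SE 0.46). The difference between the paHSC groups was 0.90 without Selp_high replicate 1 and 2.41 without Selp_low replicate 1. Rsad2, whose product makes a nucleotide that ends viral RNA chains, was at 30.9, 49.3 and 37.8 CPM in yHSCs, 25.4, 7.20 and 11.7 in Selp_low and 43.0, 33.0 and 36.2 in Selp_high paHSCs. All Selp_low libraries were lower than all libraries of the other groups, with a log2 fold change of -1.36 against yHSCs (SE 0.48, edgeR adjusted p = 0.370) and of 1.33 for Selp_high over Selp_low paHSCs (SE 0.48, edgeR adjusted p = 0.358, and 0.00168 by DESeq2 with the block). The latter was 2.00 without Selp_low replicate 1.

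Mx2 showed the same order of groups at a lower level, with 3.36, 8.88 and 9.20 CPM in yHSCs, 2.2, 1.72 and 1.09 in Selp_low and 4.78, 3.46 and 3.81 in Selp_high paHSCs. Its Selp_low libraries lay below all others, with a log2 fold change of -2.02 against yHSCs (SE 0.56, edgeR adjusted p = 0.332, DESeq2 adjusted p = 0.0305). For Selp_high over Selp_low paHSCs it was 1.26 (SE 0.50, edgeR adjusted p = 0.383, and 0.115 by DESeq2 with the block). Ifit1, which binds viral RNA that lacks host cap marks, was at 33.1, 46.4 and 43.2 CPM in yHSCs, 29.1, 19.0 and 6.90 in Selp_low and 70.6, 71.5 and 31.5 in Selp_high paHSCs. Selp_high libraries were all above Selp_low libraries, with a log2 fold change of 1.65 (SE 0.58, edgeR adjusted p = 0.350, and 2.97e-06 by DESeq2 with the block). Oas1a, the effector of highest mean FPKM (23.8), was at 46.9, 41.5 and 57.5 CPM in yHSCs, 38.8, 28.7 and 40.7 in Selp_low and 72.7, 35.7 and 41.1 in Selp_high paHSCs. Its Selp_low libraries lay below the yHSC libraries by a small margin, with a log2 fold change of -0.39 (SE 0.24). The other 6 effectors (Ifit2, Ifit3, Oas3, Mx1, Cmpk2 and Eif2ak2) had no unadjusted p under 0.05. Ifit3, Oas1a and the other IFIT and OAS genes have near copies in the mouse genome, so their counts may be split between copies.

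The 7 sensors and transcription factors sit at the head of the response. Ifih1 (MDA5) and Dhx58 (LGP2) bind double-stranded viral RNA, Zbp1 binds Z-form nucleic acid, and Irf1, Irf7, Irf9 and Stat2 carry the signal to the promoters. Of these, 5 of 7 were above 0 in Selp_high over Selp_low paHSCs (median 0.37), and 1 of 7 was above 0 in Selp_low paHSCs over yHSCs (median -0.70). Ifih1 was at 14.5, 41.9 and 40.5 CPM in yHSCs, 11.9, 14.2 and 22.2 in Selp_low and 26.4, 33.8 and 37.6 in Selp_high paHSCs. The paHSC groups did not overlap, while yHSC replicate 1 was as low as the Selp_low libraries. Between the paHSC groups its log2 fold change was 1.01 (SE 0.33, edgeR adjusted p = 0.338, and 0.0132 by DESeq2 with the block). Dhx58 was at 30.6, 48.5 and 66.2 CPM in yHSCs, 30.2, 17.1 and 19.3 in Selp_low and 69.1, 37.0 and 31.9 in Selp_high paHSCs. Every Selp_low library lay below every other library, with a log2 fold change of 1.04 for Selp_high over Selp_low paHSCs (SE 0.40, edgeR adjusted p = 0.371) and -1.06 for Selp_low paHSCs over yHSCs (SE 0.36, edgeR adjusted p = 0.358). The former was 0.63 without Selp_high replicate 1.

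None of the 4 transcription factors had an unadjusted p under 0.05 in any comparison. Irf1, at 56.3 FPKM the most abundant of this role, was at 171, 408 and 357 CPM in yHSCs, 221, 139 and 194 in Selp_low and 265, 114 and 145 in Selp_high paHSCs. Irf9 was at 102, 135 and 179.8 CPM in yHSCs, 114, 88.3 and 45.95 in Selp_low and 194, 104 and 75.2 in Selp_high paHSCs. For both genes the libraries of the 3 groups overlapped. The sensor Zbp1 had no unadjusted p under 0.05 either.

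The 9 membrane-associated or secreted proteins were the least uniform role. Their median log2 fold change was 0.21 for Selp_high over Selp_low paHSCs (6 of 9 above 0), 0.37 for Selp_high paHSCs over yHSCs (7 of 9) and 0.04 for Selp_low paHSCs over yHSCs (5 of 9). Lgals3bp, a secreted glycoprotein that binds galectins, was at 208, 294 and 393 CPM in yHSCs, 279.6, 143 and 157 in Selp_low and 925, 439 and 412 in Selp_high paHSCs. All Selp_high libraries lay above all 6 other libraries. It had a log2 fold change of 1.60 over Selp_low paHSCs (SE 0.45, edgeR adjusted p = 0.338, and 1.53e-07 by DESeq2 with the block) and of 0.98 over yHSCs (SE 0.39, edgeR adjusted p = 0.614). Ifitm3, which blocks virus fusion in endosomes, was at 565, 417 and 567 CPM in yHSCs, 845, 425 and 737 in Selp_low and 1507, 704 and 868 in Selp_high paHSCs. The Selp_high libraries were above all yHSC libraries, with a log2 fold change of 0.96 (SE 0.33, edgeR adjusted p = 0.50). Without Selp_high replicate 1 the log2 fold change over yHSCs was 0.58 for Ifitm3 and 0.49 for Lgals3bp.

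Ifi27 ran against the set. This small membrane protein of mitochondria and the nuclear envelope was at 127, 119 and 143 CPM in yHSCs, 147, 111 and 92.2 in Selp_low and 88.9, 57.0 and 63.5 in Selp_high paHSCs. All Selp_high libraries lay below all 6 others, with a log2 fold change of -0.92 against yHSCs (SE 0.25, edgeR adjusted p = 0.327) and -0.75 against Selp_low paHSCs (SE 0.29, edgeR adjusted p = 0.377). Its neighbour and relative Ifi27l2a behaved otherwise, at 4.99, 6.42 and 8.95 CPM in yHSCs, 58.0, 114 and 1.95 in Selp_low and 4.03, 9.06 and 4.67 in Selp_high paHSCs. Selp_low replicates 1 and 2 were high and replicate 3 was the lowest of all libraries. The log2 fold change of Selp_high over Selp_low paHSCs was -3.30 (SE 1.20, edgeR adjusted p = 0.358, DESeq2 adjusted p = 0.0355, and 0.191 by DESeq2 with the block). For Selp_low paHSCs over yHSCs it was 3.18 (SE 1.18, edgeR adjusted p = 0.383). Ly6e, a lipid-anchored surface protein found on immature thymocytes, was highest in the same 2 libraries and next highest in Selp_high replicate 1. It was at 813, 958 and 1199 CPM in yHSCs, 3179.8, 4382 and 787 in Selp_low and 2449, 1198 and 1356 in Selp_high paHSCs. Over yHSCs its log2 fold change in Selp_low paHSCs was 1.56 (SE 0.63, edgeR adjusted p = 0.421), and 1.00 without Selp_low replicate 2. The 2 libraries with the highest Ly6e and Ifi27l2a are those in which the B cell markers summed to 5235 and 7406 CPM and Cd48 reached 175 and 310 CPM. In Selp_low replicate 3 all of these were low. Selp_high replicate 1, with Ly6e at 2449 CPM, had a B cell sum of only 215 CPM and Ifi27l2a at 4.03 CPM. The part of other cells in these 2 genes was not tested.

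The 10 modifiers and other members include the ubiquitin-like Isg15, the enzyme Usp18 that removes it, the ADP-ribosylation enzymes Parp9 and Parp14 with the partner ligase Dtx3l, and the nuclear body protein Sp100. Their medians were 0.04 for Selp_high over Selp_low paHSCs, -0.26 for Selp_high paHSCs over yHSCs and -0.31 for Selp_low paHSCs over yHSCs. Ifi44 was the only member of this role called by DESeq2 with the block. It was at 71.1, 76.6 and 87.3 CPM in yHSCs, 55.4, 20.7 and 20.0 in Selp_low and 133, 70.3 and 42.1 in Selp_high paHSCs. The Selp_low libraries lay below the yHSC libraries, with a log2 fold change of -1.23 (SE 0.44, edgeR adjusted p = 0.370, and -1.91 without Selp_low replicate 1), and that of Selp_high over Selp_low paHSCs was 1.34 (SE 0.57, edgeR adjusted p = 0.401, and 1.81e-04 by DESeq2 with the block). Parp9, which shares 682 bases with Dtx3l on the opposite strand, was at 40.4, 69.8 and 82.3 CPM in yHSCs, 42.2, 34.8 and 26.3 in Selp_low and 54.1, 62.6 and 43.3 in Selp_high paHSCs. Its log2 fold change in Selp_low paHSCs over yHSCs was -0.83 (SE 0.33, edgeR adjusted p = 0.410).

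Isg15, the name-giving gene of the modifiers, was lower in Selp_high than in Selp_low paHSCs in all 3 assumed pairs, by -0.37, -0.69 and -0.32 in log2 CPM (24.9% of all genes). Its log2 fold change between these groups was -0.48 (SE 0.36), with overlapping libraries, while the GTPases and most effectors were above 0. Against yHSCs Isg15 was below 0, as most effectors were, at -0.15 in Selp_low (SE 0.33) and -0.70 in Selp_high paHSCs (SE 0.35). The 2 most abundant members of this role were Ifi35 and Sp100. Ifi35 was at 55.8, 45.6 and 47.2 CPM in yHSCs, 86.7, 68.5 and 36.8 in Selp_low and 84.0, 38.7 and 33.8 in Selp_high paHSCs. Sp100 was at 181, 186 and 226 CPM in yHSCs, 363, 326 and 184 in Selp_low and 238, 144 and 191 in Selp_high paHSCs. For both, Selp_low replicates 1 and 2 were higher than the yHSC libraries and replicate 3 was not. Usp18, Parp14, Dtx3l, Trim30a and Xaf1 had no unadjusted p under 0.05 in any comparison.

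Levels also differed between libraries of the same group. Averaged over the 46 genes after centring each gene on its mean of log2 CPM, the level was -0.13, 0.30 and 0.50 in yHSCs, 0.12, -0.24 and -0.93 in Selp_low and 0.55, 0.07 and -0.24 in Selp_high paHSCs. The ranges of the 3 groups overlapped. Selp_low replicate 3 held the lowest level of 24 of 46 genes, against 7.88% of all 22594 genes, and it is the library with the most neutrophil markers and the fewest HSC markers (791 CPM). Selp_high replicate 1 held the highest level of 19 of 46 genes, against 14.3% of all genes, and it had the most HSC markers (3048 CPM) and a low number of detected genes. Among yHSCs, replicate 1 had the lowest mean of the interferon-stimulated genes, the most neutrophil markers (63332 CPM) and the fewest HSC markers (1014 CPM). Over all genes tested the same centred mean was 0.28, -0.54 and 0.05 in yHSCs, 0.26, 0.26 and 0.13 in Selp_low and -0.52, 0.24 and -0.16 in Selp_high paHSCs. The part of these library differences in the results was not tested.

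**Figure D4:**
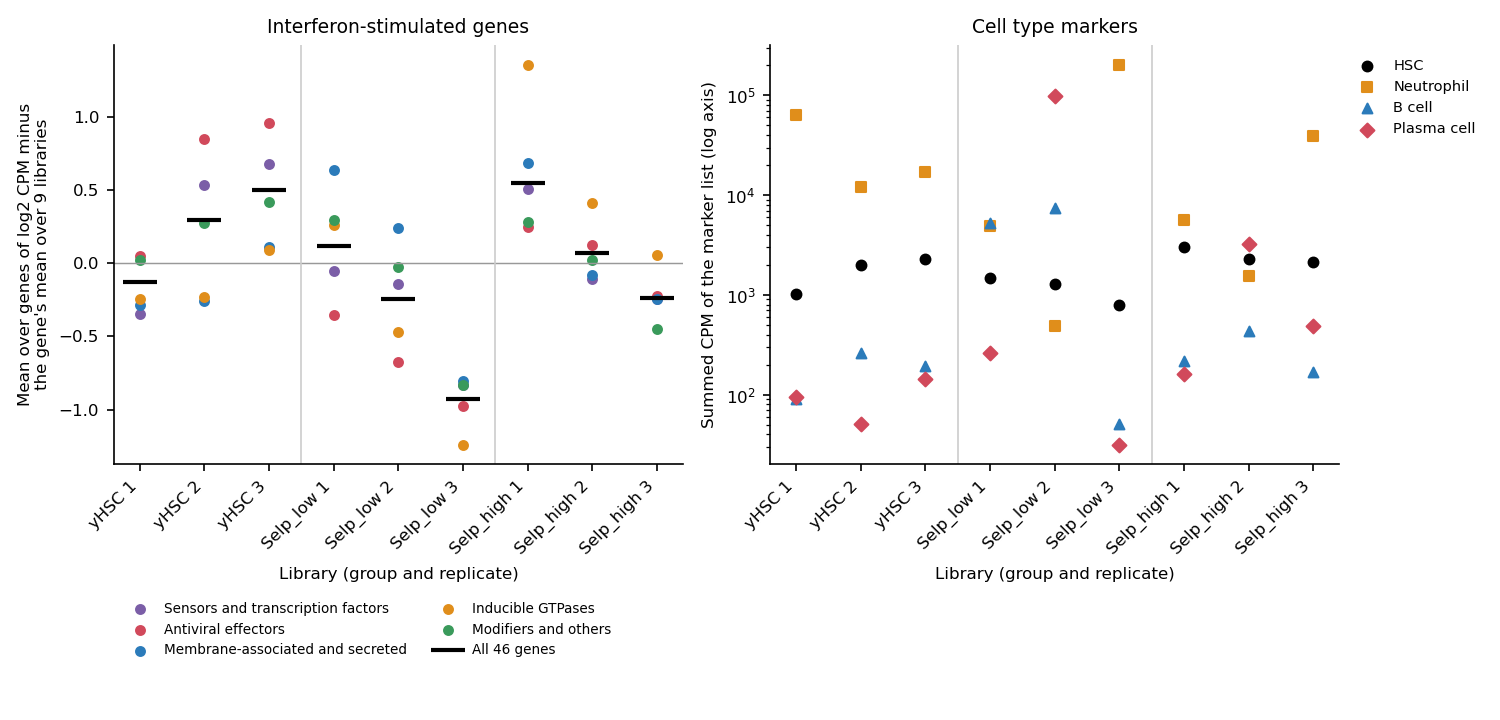
Left, mean centred log2 CPM of each role (coloured points) and of all 46 genes (black bars) in every library. Right, summed CPM (log axis) of the markers of HSCs, neutrophils, B cells and plasma cells in the same libraries. The GTPases of Selp_high replicate 1 are at 1.36 and those of Selp_low replicate 3 at -1.24, and the latter library has the highest neutrophil sum.

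The other genes of the interferon pathway were read from the same fits. Of 91 further symbols, 87 were found, and 79, 77 and 78 could be tested for Selp_high over Selp_low paHSCs, Selp_high paHSCs over yHSCs and Selp_low paHSCs over yHSCs. None was called by edgeR. At an unadjusted p under 0.05, 3 were higher and 6 lower for Selp_high over Selp_low paHSCs, against 6.88% and 5.67% of all genes. For Selp_high paHSCs over yHSCs 3 were higher and 2 lower, against 4.48% and 3.11%, and for Selp_low paHSCs over yHSCs 7 were higher and 2 lower, against 7.11% and 4.17%. DESeq2 called 2 as lower, 2 as higher with 1 as lower, and none, in the same order. The median log2 fold change of Selp_high over Selp_low paHSCs was -0.04, beside 0.51 for the 46 genes.

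Among ligands, only Ifng could be tested, in the comparisons that include Selp_low paHSCs. Interferon-γ is made mainly by T and NK cells. Ifng was at 0, 0.65 and 0 CPM in yHSCs, 9.88, 7.66 and 0.08 in Selp_low and 0.18, 0.40 and 0.11 in Selp_high paHSCs. The 2 Selp_low libraries with Ifng are those with the B cell markers. They also had the most Cd3g (83.9 and 226.7 CPM, at most 5.46 elsewhere), Cd3e and Cd3d, which are T cell genes. The rest of the T and NK cell list went otherwise, with Nkg7 highest in Selp_low replicate 3 (620 CPM) and Klrb1c in Selp_high replicate 1 (102 CPM). The whole list summed to 239, 758 and 633 CPM in Selp_low replicates 1 to 3. The part of such cells was not tested. Its log2 fold change of Selp_high over Selp_low paHSCs was -4.65 (SE 1.50, edgeR adjusted p = 0.338, DESeq2 adjusted p = 0.0072). The 4 markers of plasmacytoid dendritic cells, a main source of type I interferon, summed to only 2.40 to 31.8 CPM in the 9 libraries.

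Among receptors and sensors, 2 genes met the rule for naming. Ifngr2, a receptor chain for interferon-γ, was at 33.5, 34.4 and 55.4 CPM in yHSCs, 58.2, 52.5 and 39.4 in Selp_low and 34.4, 19.2 and 33.7 in Selp_high paHSCs, with a log2 fold change of -0.79 between the paHSC groups (SE 0.32, edgeR adjusted p = 0.384). Ddx58, which encodes the RNA sensor RIG-I, was lower than in yHSCs in both paHSC groups, by -0.84 in Selp_low (SE 0.32, edgeR adjusted p = 0.387) and -0.77 in Selp_high paHSCs (SE 0.32, edgeR adjusted p = 0.648) on the log2 scale.

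Genes of antigen processing were mixed in Selp_low paHSCs over yHSCs. Of 7 genes of MHC class I presentation and the immunoproteasome, 4 had a log2 fold change above 0, at an unadjusted p under 0.05 (7.11% of all genes higher) and without overlap of libraries (9.59% of all genes higher). These were B2m (log2 fold change 1.46, SE 0.48, edgeR adjusted p = 0.354), Psmb8 (1.01, SE 0.39, edgeR adjusted p = 0.398), Psmb9 (0.95, SE 0.29, edgeR adjusted p = 0.337) and Psmb10 (0.85, SE 0.32, edgeR adjusted p = 0.384). B2m, the light chain of MHC class I, was at 2896, 2521 and 2933 CPM in yHSCs, 5728, 11784 and 4518 in Selp_low and 5168, 3720.5 and 3345 in Selp_high paHSCs. It was highest in Selp_low replicate 2, the library with the most B cell and plasma cell markers. Psmb8 was at 191.1, 193.6 and 191.3 CPM in yHSCs and 433.8, 487.9 and 194.1 in Selp_low paHSCs. Psmb9 was at 133, 146.5 and 151 CPM in yHSCs and 274, 337 and 191 in Selp_low paHSCs, and Psmb10 at 101, 103 and 104 against 213, 212 and 111. Each was highest in Selp_low replicates 1 and 2, the libraries of the B cell markers, and nearer the yHSC libraries in replicate 3. The part of these cells in the result was not tested. The other 3 of the 7 genes were below 0, the peptide transporter chains Tap1 (log2 fold change -0.12, SE 0.39) and Tap2 (-0.73, SE 0.36) and the class I transactivator Nlrc5 (-0.07, SE 0.54), each with overlapping libraries.

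The 39 further interferon-stimulated genes outside the set did not share the direction of the 46. Their median log2 fold change was 0.07 for Selp_high over Selp_low paHSCs, with 21 of 39 above 0. For Selp_low paHSCs over yHSCs it was -0.08, with 19 of 38 tested genes above 0. The 46 genes had medians of 0.51 and -0.48 in these comparisons. At an unadjusted p under 0.05, 3 of the 39 were higher and 4 lower for Selp_high over Selp_low paHSCs, against 6.88% and 5.67% of all genes. For Selp_high paHSCs over yHSCs 2 were higher and 1 lower, against 4.48% and 3.11%. In Selp_low paHSCs over yHSCs 3 were higher and 1 lower, against 7.11% and 4.17%. Besides Irgm2, Ifi204 (log2 fold change 1.41, SE 0.56, edgeR adjusted p = 0.382) and Gbp6 (1.47, SE 0.57, edgeR adjusted p = 0.378) were higher in Selp_high than in Selp_low paHSCs. Lower were Ifi213 (-4.19, SE 1.49, edgeR adjusted p = 0.352, DESeq2 adjusted p = 0.0145), Helz2 (-2.09, SE 0.72, edgeR adjusted p = 0.347), Cxcl10 (-1.30, SE 0.53, edgeR adjusted p = 0.389) and Slfn2 (-1.20, SE 0.29, edgeR adjusted p = 0.338). Ifi213, of the same PYHIN family as Ifi204, was at 28.5 and 36.8 CPM in Selp_low replicates 1 and 2 and at 0.23 in replicate 3, the pattern of Ifi27l2a. Against yHSCs, Phf11d was higher in Selp_high paHSCs by a log2 fold change of 2.08 (SE 0.54, edgeR adjusted p = 0.303, DESeq2 adjusted p = 0.0100), and Ifi213 was lower by -2.83 (SE 0.65, edgeR adjusted p = 0.228, DESeq2 adjusted p = 6.26e-04). In Selp_low paHSCs over yHSCs, Slfn2 (1.62, SE 0.45, edgeR adjusted p = 0.332), Psme2 (1.12, SE 0.31, edgeR adjusted p = 0.332) and Phf11d (1.09, SE 0.41, edgeR adjusted p = 0.387) were higher, and Ddx60 was lower (-1.14, SE 0.35, edgeR adjusted p = 0.337).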

How the data were processed

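The authors deposited raw, whole-number read counts for each gene and did not normalize them, with the length of each gene in a further column. Per the methods and the submitters' processing notes, base calls came from CASAVA 1.8, reads were trimmed with fastp, aligned with HISAT2 2.2.1 to mm39 and counted with featureCounts 2.0.6. cDNA was amplified from low input, and no molecular identifiers were described, so amplification adds error that counts do not show. How strand and reads with several matches were handled in counting is not given in the sources used here. In the table, 0 columns of per-sample values were left unused.

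Each pair of groups was fitted on its own 6 libraries in R 4.3.3 with edgeR 4.0.16 (quasi-likelihood test with the legacy setting, 2-sided, TMM factors, filterByExpr by group) and Benjamini-Hochberg adjustment over all genes tested. A call needed an adjusted p no higher than 0.05 and a log2 fold change of 1 or more in either direction. DESeq2 1.42.0 and limma 3.58.1 were alternatives. An exact permutation test of 3 against 3 libraries cannot go below p = 0.1 and was not used. The SE was the absolute log2 fold change divided by the square root of F. CPM used TMM factors over the 9 libraries, and logs a prior count of 2. A count of 0 allows up to 3 counts, or 0.0696 to 0.198 CPM, for counting error only. The fits were tested on simulated data. Figures were drawn with matplotlib 3.10.9 in Python 3.11.15.

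Members and gene lists were chosen with earlier results of these data known, so no list test was run. Members with an unadjusted edgeR p under 0.05 or a DESeq2 call in any comparison, and the 2 of highest mean FPKM per role, were given in every library, and further pathway genes by the same p rule. A pathway gene that met this rule is not reported here by name or value, though the counts include it. Same-numbered Selp_low and Selp_high libraries deviated together from their group means (correlations 0.195, 0.318 and 0.323). The labels do not say what a number marks, so treating these numbers as pairs was an assumption drawn from the same data. Numbers shared with yHSCs gave -0.398 to 0.0877, in part larger in size. Correlations between libraries of different numbers are not given, so these values cannot establish pairs.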

Additional observations from a re-analysis of the deposited data

How the results depend on the processing

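No value past a threshold reversed its direction. The median of Selp_high paHSCs over yHSCs (-0.07) was 0.00 without yHSC replicate 3, 0.00 without Selp_high replicate 2 and 0.09 without Selp_high replicate 3. Of the 46 genes, edgeR at its main setting called none in any comparison. For Selp_high over Selp_low paHSCs, DESeq2 called 1 (2.4% of its genes). DESeq2 with the replicate block called 10, all higher (4.75% of its genes higher). For Selp_high paHSCs over yHSCs the count was 2 with edgeR without the filter on low counts and 2 with DESeq2 (3.32% of its genes). It was 1 with limma voom with quality weights and 3 with DESeq2 with the replicate block. For Selp_low paHSCs over yHSCs it was 1, 2, 1 and 2 in the same order, and 0 to 1 when each library was left out, with Ifi27l2a called without Selp_low replicate 3. The genes with an unadjusted p under 0.05, which numbered 13, 7 and 11 as reported, were 7 with upper-quartile factors and 21 with DESeq2 with the replicate block for Selp_high over Selp_low paHSCs, and 2 to 12 with each library left out. For Selp_high paHSCs over yHSCs they were 16 with limma voom, and 4 to 11 with each library left out. For Selp_low paHSCs over yHSCs they were 23 with limma voom, 5 with the replicate block in edgeR, and 3 to 16 with each library left out. The replicate block in edgeR called 0 of 46 in each comparison and gave medians of 0.45, -0.13 and -0.59. The DESeq2 fit with the block was chosen after the data had been seen. For the fits with no share of all genes beside them, here and with a library left out above, that share was not given. Their counts therefore cannot be read as particular to these genes. The causes were not tested. With 3 libraries a group, the SE printed beside each value sets what could be resolved.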
